A study of Homo sapiens with 192 samples.

Results

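The BCL2 family comprises the proteins that decide whether the outer mitochondrial membrane is opened during apoptosis. Its transcripts were followed here in HT29, LS513, HCT116 and LS174T, 4 established human colorectal cancer cell lines, each grown as a flat 2D culture and in 3D. The members are 10 genes picked by name: the anti-apoptotic BCL2, BCL2L1 (encoding BCL-XL) and MCL1, the pore-forming BAX and BAK1, and the BH3-only genes BID, BIK, BMF, BCL2L11 (encoding BIM) and PMAIP1 (encoding NOXA). They are 10 of 58243 genes listed in the count tables, and all 10 were among the 19387 genes that passed the filter on low counts. They were taken by name and not by a threshold on any value, although earlier results of these data were known.

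In healthy cells the anti-apoptotic proteins hold BAX, BAK and the BH3-only proteins in check through a groove that binds the BH3 helix of their partners. Under stress, BH3-only proteins accumulate or become active, occupy that groove or engage BAX and BAK directly, and the latter pair then oligomerise and release cytochrome c, which leads to caspase activation. Colorectal tumour cells are known for leaning on BCL-XL and MCL1 for survival, and detachment or loss of growth factors is a classical trigger of BMF and BIM. Much of this control acts on the proteins (phosphorylation, cleavage of BID, turnover of MCL1 and NOXA), which transcript levels do not report.

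The study asked how such lines respond to extracellular adenosine compounds, and the libraries described here are its comparison of 2D with 3D growth by poly(A) RNA sequencing. There were 8 groups (HT29 2D, HT29 3D, LS513 2D, LS513 3D, HCT116 2D, HCT116 3D, LS174T 2D and LS174T 3D) with 3 libraries in each, 24 in all. The labels give no genotype change, agent or time for any group. According to the study's methods HCT116 was kept in McCoy medium and the other lines in DMEM, so that medium and line cannot be told apart for HCT116. Each line stands for a single tumour. The HT29 3D libraries are numbered 1, 3 and 4, and those of every other group 1 to 3. Nothing in the labels says that the 3 libraries of a group came from separate cultures, so the p-values measure only the spread between these libraries, which may be technical.

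Library totals ran from 18723942 to 34277421 counts (median 30777613), so that 3 counts corresponded to 0.0875 to 0.160 CPM, the usual unit of counts scaled to a common library total. Mitochondrially encoded transcripts took between 1.14% and 6.40% of the counts, with the highest share in HCT116 3D replicate 1. LS174T 3D replicate 2 stood apart from the other 2 libraries of its group for several members, and results that rest on either library are given with and without it. All 10 colonic epithelial markers exceeded 3 counts in every library of HT29, LS513 and LS174T, whereas 8 did so in HCT116 2D and 9 in HCT116 3D. The summed level of these markers ran from 3574 to 4613 CPM in HCT116 2D and from 5476 to 6055 CPM in HCT116 3D, from 3633 to 5046 and from 4733 to 6897 CPM in LS174T, from 10790 to 11120 and from 14680 to 16640 CPM in LS513, and from 15400 to 18360 and from 16850 to 17260 CPM in HT29. Of these 10 markers, 5, 7, 4 and 5 were higher in 3D in HT29, LS513, HCT116 and LS174T, respectively, and 1 was lower, in HT29. Among 8 leukocyte, fibroblast and endothelial markers, CD3E and COL1A2 were at 0 in all groups, and CD68 was higher in 3D in all 4 lines. Their summed level was 2.22 to 92.6 CPM, most of it CD68 except in HCT116 2D, where COL1A1 averaged 14.1 CPM and CD68 10.9 CPM. The part of these differences in the results below was not tested.

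The feature that unites the family is the BH3 motif, a leucine followed at the fifth position by a glycine or alanine and directly by an aspartate. The stretch coding for it is shown for each member because it is what the anti-apoptotic groove reads in its partners. Sequences are from the GRCh38 reference with the GENCODE 29 annotation, 36 bases long, 5′ to 3′ on the coding strand. Capitals mark the leucine codon and then the codons for the small residue and the aspartate.
BCL2 (chr18:63318352-63318387, minus strand): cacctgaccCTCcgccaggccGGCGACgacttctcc
BCL2L1 (chr20:31721925-31721960, minus strand): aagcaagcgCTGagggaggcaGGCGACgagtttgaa
MCL1 (chr1:150578868-150578903, minus strand): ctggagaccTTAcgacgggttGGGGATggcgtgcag
BAX (chr19:48955778-48955813, plus strand): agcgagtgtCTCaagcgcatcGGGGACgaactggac
BAK1 (chr6:33575390-33575425, minus strand): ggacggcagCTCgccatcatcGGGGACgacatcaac
BID (chr22:17739418-17739453, minus strand): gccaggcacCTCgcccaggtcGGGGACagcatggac
BIK (chr22:43127707-43127742, plus strand): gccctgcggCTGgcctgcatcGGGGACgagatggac
BMF (chr15:40104198-40104233, minus strand): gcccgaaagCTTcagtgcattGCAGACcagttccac
BCL2L11 (chr2:111150094-111150129, plus strand): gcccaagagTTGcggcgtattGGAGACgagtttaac
PMAIP1 (chr18:59902664-59902699, plus strand): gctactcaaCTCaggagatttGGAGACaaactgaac
The pattern occurred once in the coding sequence examined for each of the 10 members. In 9 of them the small residue was glycine, and in BMF it was alanine. The stretch lies in coding exon sequence throughout, in exon 1 of 2 for BCL2 and for BCL2L1, exon 1 of 3 for MCL1, exon 3 of 6 for BAX, exon 4 of 6 for BAK1 and for BID, exon 3 of 5 for BIK, exon 3 of 4 for BMF, exon 4 of 5 for BCL2L11 and exon 2 of 2 for PMAIP1. Such a short pattern is not rare: it was present in 4875 of 19475 protein-coding genes (25.0%), and in 849 of 7440 genes (11.4%) with no more codons than the longest member.

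Of the 10 members, 5 were called between 3D and 2D growth in at least 1 line. The share of all genes called in at least 1 line is not given here. HT29 alone had 21.1% of all genes higher and 19.6% lower, so this count is not read as a result about the family. BMF was higher in 3D in HT29 (4.61-fold), HCT116 (4.38-fold) and LS174T (2.55-fold), and BIK was higher in LS513, HCT116 (2.28-fold) and LS174T. Transcripts of BCL2 fell in HCT116 and LS174T, those of BCL2L11 fell in LS513 and LS174T, and those of BCL2L1 fell in HT29. MCL1, BAX, BAK1, BID and PMAIP1 did not pass the test in any line. Calls were made with edgeR's quasi-likelihood test with Benjamini-Hochberg adjustment over all 19387 genes, at an adjusted p below 0.05 and with no fold threshold.

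In HT29, 1 member was higher and 1 lower in 3D, beside 21.1% and 19.6% of all genes tested. In LS513 the counts were again 1 and 1, beside 13.7% and 9.9% of all genes. HCT116 had 2 higher and 1 lower, beside 16.8% and 12.3% of all genes. LS174T had 2 higher and 2 lower, beside 13.1% and 9.15% of all genes, and no lower member was left without LS174T 3D replicate 2. For 10 members, these counts lie within about 1 gene of what the percentages over all genes would give. The median log2 fold change of the members was 0.12, 0.08, 0.20 and 0.03 in HT29, LS513, HCT116 and LS174T, and that of all tested genes was 0.00, 0.00, 0.01 and 0.02. BIK and BMF were each higher in 3 of the 4 lines, and 8.38% of all genes were higher in at least 3. These are bulk libraries, in which fewer cells expressing a gene and less RNA of it per cell cannot be told apart.

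**Figure D1:**
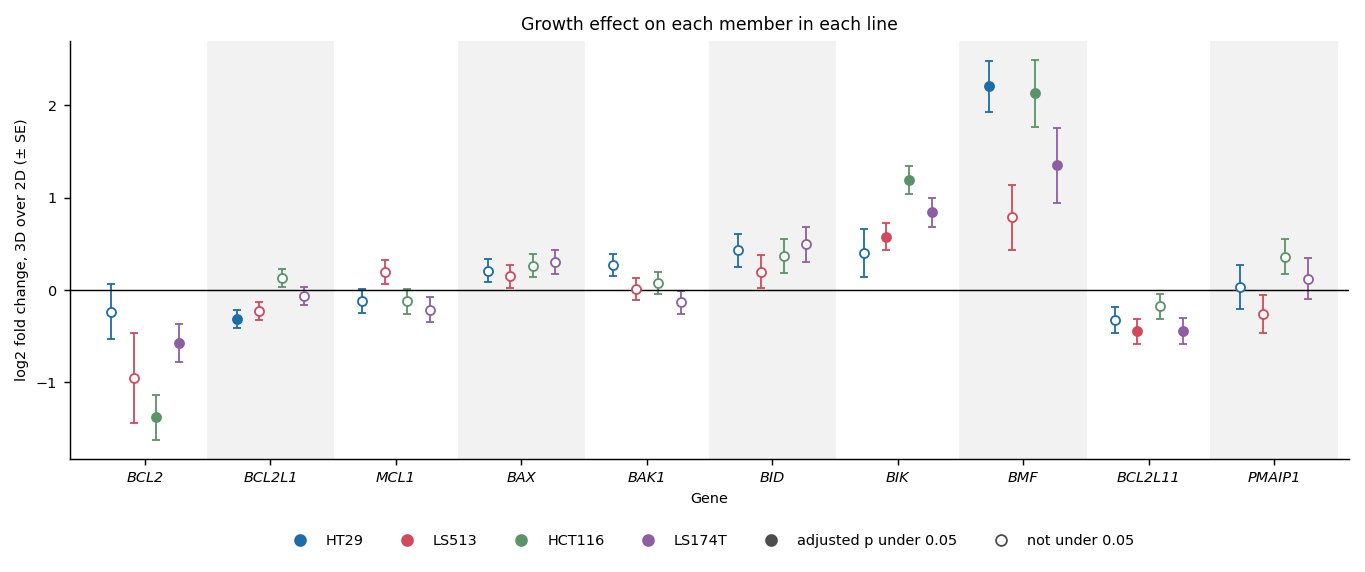
Log2 fold change of each BCL2 family member between 3D and 2D growth (vertical axis, positive when higher in 3D) in the 4 lines; bars are standard errors of the fitted value and filled points passed an adjusted p of 0.05. BMF lies furthest above 0, at 2.21 in HT29 and 2.13 in HCT116, and BCL2 furthest below, at -1.38 in HCT116.

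BMF encodes a BH3-only protein held on the actin-based myosin V motor until the cytoskeleton is disturbed (ENSG00000104081, chr15:40087890-40108892, minus strand). In HT29 it measured 4.70, 2.48 and 6.68 CPM in the 2D libraries and 23.6, 18.6 and 20.7 CPM in the 3D libraries. Every 3D library was thus well above every 2D library, and the log2 fold change was 2.21 (SE 0.28, adjusted p = 2.2e-06). In HCT116 the gene was barely transcribed in 2D, at 0.181, 0.633 and 0.706 CPM (6 to 22 counts), and reached 2.93, 2.35 and 1.40 CPM in 3D. The groups did not overlap, and the log2 fold change was 2.13 (SE 0.36, adjusted p = 1.3e-04), or 1.87 without HCT116 3D replicate 1 (adjusted p = 0.0015). LS174T gave 0.389, 0.455 and 0.326 CPM in 2D (11 to 16 counts) and 0.9503, 0.875 and 1.17 CPM in 3D, again without overlap. Its log2 fold change of 1.35 (SE 0.41, adjusted p = 0.021) was no longer called without LS174T 2D replicate 1 (1.35, adjusted p = 0.0604) or replicate 3 (1.24, adjusted p = 0.0785), and was 1.44 without LS174T 3D replicate 2 (adjusted p = 0.0394). In LS513 the libraries gave 0.869, 0.937 and 0.855 CPM in 2D and 1.44, 1.42 and 1.73 CPM in 3D, a log2 difference of 0.79 (SE 0.35) that did not pass (adjusted p = 0.109).

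BIK, a BH3-only protein of the endoplasmic reticulum (ENSG00000100290, chr22:43110748-43129712, plus strand), was close to silent in HT29 and readily detected in the other lines. HCT116 gave 8.70, 7.82 and 8.18 CPM in 2D and 19.2, 18.6 and 18.6 CPM in 3D. The 3D libraries lay close together and far above the 2D libraries (log2 fold change 1.19, SE 0.15, adjusted p = 4.7e-06). LS513 held the highest level, 26.7, 26.6 and 28.3 CPM in 2D and 43.0, 41.0 and 37.7 CPM in 3D, with no overlap (log2 fold change 0.58, SE 0.15, adjusted p = 0.0055). LS174T gave 6.31, 6.0 and 7.02 CPM in 2D and 9.84, 16.0 and 8.97 CPM in 3D. The 16.0 CPM came from LS174T 3D replicate 2, and the log2 fold change of 0.84 (SE 0.16, adjusted p = 5.6e-04) became 0.56 without that library (adjusted p = 0.00332). In HT29, BIK stayed below 1 CPM, at 0.583, 0.860 and 0.548 CPM in 2D and 0.935, 0.795 and 0.943 CPM in 3D, and the log2 difference of 0.40 did not pass (SE 0.26, adjusted p = 0.238).

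BCL2L11 encodes BIM, which binds all anti-apoptotic members and can engage BAX directly (ENSG00000153094, chr2:111119378-111168447, plus strand). In LS513 it measured 23.3, 25.7 and 24.2 CPM in 2D and 16.7, 16.7 and 20.3 CPM in 3D. All 3D values were below all 2D values (log2 fold change -0.45, SE 0.14, adjusted p = 0.0189), although the call was lost without 2D replicate 2 (-0.41, adjusted p = 0.0803), 3D replicate 1 (-0.41, adjusted p = 0.0811) or 3D replicate 2 (-0.41, adjusted p = 0.0862). In LS174T it went from 23.4, 22.4 and 22.1 CPM to 18.2, 11.9 and 19.6 CPM, the lowest value being that of 3D replicate 2. The log2 fold change was -0.44 (SE 0.14, adjusted p = 0.0229) and became -0.25 without that library (adjusted p = 0.17); it also lost its call without 2D replicate 1 (-0.42, adjusted p = 0.0729), 2 (-0.45, adjusted p = 0.0551) or 3 (-0.46, adjusted p = 0.0529). HT29 showed 19.9, 20.3 and 20.2 CPM in 2D against 15.5, 18.1 and 14.6 CPM in 3D, without overlap but without a call (-0.32, adjusted p = 0.0638). HCT116 gave 28.8, 25.3 and 23.4 CPM against 23.0, 23.8 and 21.8 CPM, which overlapped (-0.18, adjusted p = 0.352).

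BID, the BH3-only protein that caspase-8 cleaves to link death receptors to mitochondria (ENSG00000015475, chr22:17734138-17774770, minus strand), was called in no line, although DESeq2 called it in HT29 and LS174T. Its 3D libraries lay above the 2D libraries in all 4 lines, in LS174T only by 23.34 against 23.32 CPM. The share of all genes without overlap in all 4 lines is not given here, so this is not read as a result about BID. In HT29 the values were 64.9, 64.5 and 63.0 CPM in 2D and 74.99, 96.6 and 87.4 CPM in 3D (log2 difference 0.43, adjusted p = 0.0633). LS513 gave 78.4, 78.1 and 77.7 CPM against 84.8, 100.2 and 84.0 CPM (0.20, adjusted p = 0.474), and HCT116 gave 56.9, 48.8 and 60.2 CPM against 62.3, 65.0 and 87.2 CPM (0.37, adjusted p = 0.132). In LS174T the 2D libraries measured 23.3, 22.8 and 21.0 CPM, 3D replicates 1 and 3 only 23.9 and 23.3 CPM, and 3D replicate 2 47.4 CPM (0.49, adjusted p = 0.0600). The difference was 0.09 without that library, and it passed without HT29 3D replicate 1 (0.55, adjusted p = 0.0385), LS174T 3D replicate 1 (0.66, adjusted p = 0.0203) or LS174T 3D replicate 3 (0.67, adjusted p = 0.00923).

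PMAIP1 encodes NOXA, the BH3-only protein that selectively binds MCL1 (ENSG00000141682, chr18:59899948-59904306, plus strand), and its 2D and 3D ranges overlapped in every line. In HCT116, where it was highest, it measured 35.5, 29.8 and 39.95 CPM in 2D and 42.2, 35.6 and 57.3 CPM in 3D (log2 difference 0.36, adjusted p = 0.166). LS513 gave 8.91, 9.003 and 9.35 CPM against 5.78, 9.20 and 7.76 CPM (-0.26, adjusted p = 0.403). HT29 and LS174T stayed between 2.35 and 4.599 CPM in all 12 libraries, with log2 differences of 0.03 (adjusted p = 0.959) and 0.12 (adjusted p = 0.734).

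BCL2 itself (ENSG00000171791, chr18:63123346-63320128, minus strand), the founding survival member, varied most between the lines among the anti-apoptotic genes. In HCT116 it measured 4.44, 5.09 and 3.82 CPM in 2D and 1.46, 1.47 and 2.21 CPM in 3D. The groups were clearly apart (log2 fold change -1.38, SE 0.24, adjusted p = 1.9e-04), and the value was -1.29 without HCT116 3D replicate 1 (adjusted p = 0.00205). LS174T gave the highest values of all lines, 19.9, 21.6 and 19.1 CPM in 2D and 14.9, 8.75 and 17.0 CPM in 3D, the lowest again being 3D replicate 2. The log2 fold change of -0.57 (SE 0.21, adjusted p = 0.048) had the highest adjusted p of the called members. The call was lost without 2D replicate 1 (-0.59, adjusted p = 0.0964), 2D replicate 2 (-0.52, adjusted p = 0.141), 2D replicate 3 (-0.61, adjusted p = 0.0883), 3D replicate 1 (-0.65, adjusted p = 0.0633) or 3D replicate 2 (-0.33, adjusted p = 0.291), and was kept without 3D replicate 3 (-0.77, adjusted p = 0.0129). LS513 was at the edge of detection, with 9 to 13 counts per library in 2D (0.290, 0.393 and 0.349 CPM) and 4 to 6 counts in 3D (0.141, 0.213 and 0.173 CPM), a log2 difference of -0.95 with an SE of 0.49 (adjusted p = 0.167). HT29 gave 1.34, 0.791 and 1.64 CPM against 1.36, 0.899 and 0.834 CPM, which overlapped (-0.23, adjusted p = 0.566).

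BCL2L1 is transcribed on chromosome 20 (ENSG00000171552, chr20:31664452-31723989, minus strand), and the longer of its protein products, BCL-XL, is anti-apoptotic, whereas a shorter splice product promotes death; gene-level counts do not separate them. In HT29 the libraries gave 373, 419 and 334 CPM in 2D and 314, 305 and 287 CPM in 3D. The groups did not overlap, and the log2 fold change was -0.32 (SE 0.10, adjusted p = 0.0117). The call was lost without 2D replicate 1 (-0.27, adjusted p = 0.0674), 2D replicate 2 (-0.19, adjusted p = 0.168), 3D replicate 3 (-0.28, adjusted p = 0.0633) or 3D replicate 4 (-0.24, adjusted p = 0.0987). LS513 gave 380, 382 and 322 CPM against 323, 325 and 280.3 CPM (-0.22, adjusted p = 0.102). HCT116 ran from 165 to 188 CPM in 2D and from 188 to 195 CPM in 3D (0.13, adjusted p = 0.353), and LS174T from 111 to 139 and from 112 to 122 CPM (-0.06, adjusted p = 0.700).

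MCL1, a short-lived survival protein (ENSG00000143384, chr1:150574551-150579738, minus strand), was not called in any line, and its log2 differences ran from -0.21 in LS174T to 0.20 in LS513 with an SE of 0.13. In HT29 its 2D libraries gave 230.1, 261 and 261 CPM, and its 3D libraries 177, 315 and 202 CPM, a range that enclosed the 2D values. In LS513 the 3D libraries (359, 347 and 401 CPM) lay above the 2D libraries (311, 331 and 324 CPM), and in LS174T they lay below (117, 107 and 120.3 CPM against 139, 135 and 125 CPM). In HCT116 the 2D libraries ran from 161 to 167 CPM and the 3D libraries from 141 to 162 CPM. None came near the threshold, with adjusted p-values of 0.511, 0.314, 0.525 and 0.261 in the order HT29, LS513, HCT116 and LS174T.

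The effectors BAX and BAK1, whose products form the pore, did not pass the test in any line. BAX (ENSG00000087088, chr19:48954815-48961798, plus strand) measured 161, 158 and 162 CPM in HT29 2D and 184, 195 and 178 CPM in HT29 3D, a separation without overlap but with a log2 difference of only 0.21 (adjusted p = 0.177). It ran from 68.1 to 71.7 CPM in LS513 2D and from 71.2 to 85.3 CPM in LS513 3D, and from 65.3 to 82.8 CPM and from 81.5 to 90.1 CPM in HCT116, with overlap in both lines. Its log2 differences in LS513, HCT116 and LS174T were 0.15, 0.26 and 0.30, with adjusted p-values of 0.435, 0.111 and 0.0817. LS174T 3D replicate 2 again held the highest BAX level of its group, 52.9 CPM beside 37.3 and 32.1 CPM, and the difference was 0.08 without it. BAK1 (ENSG00000030110, chr6:33572547-33580293, minus strand) was the flattest member, between 22.6 and 39.2 CPM in all 24 libraries, with log2 differences of 0.28, 0.01, 0.07 and -0.13 in HT29, LS513, HCT116 and LS174T and adjusted p-values of 0.0702, 1.00, 0.699 and 0.445.

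**Figure D2:**
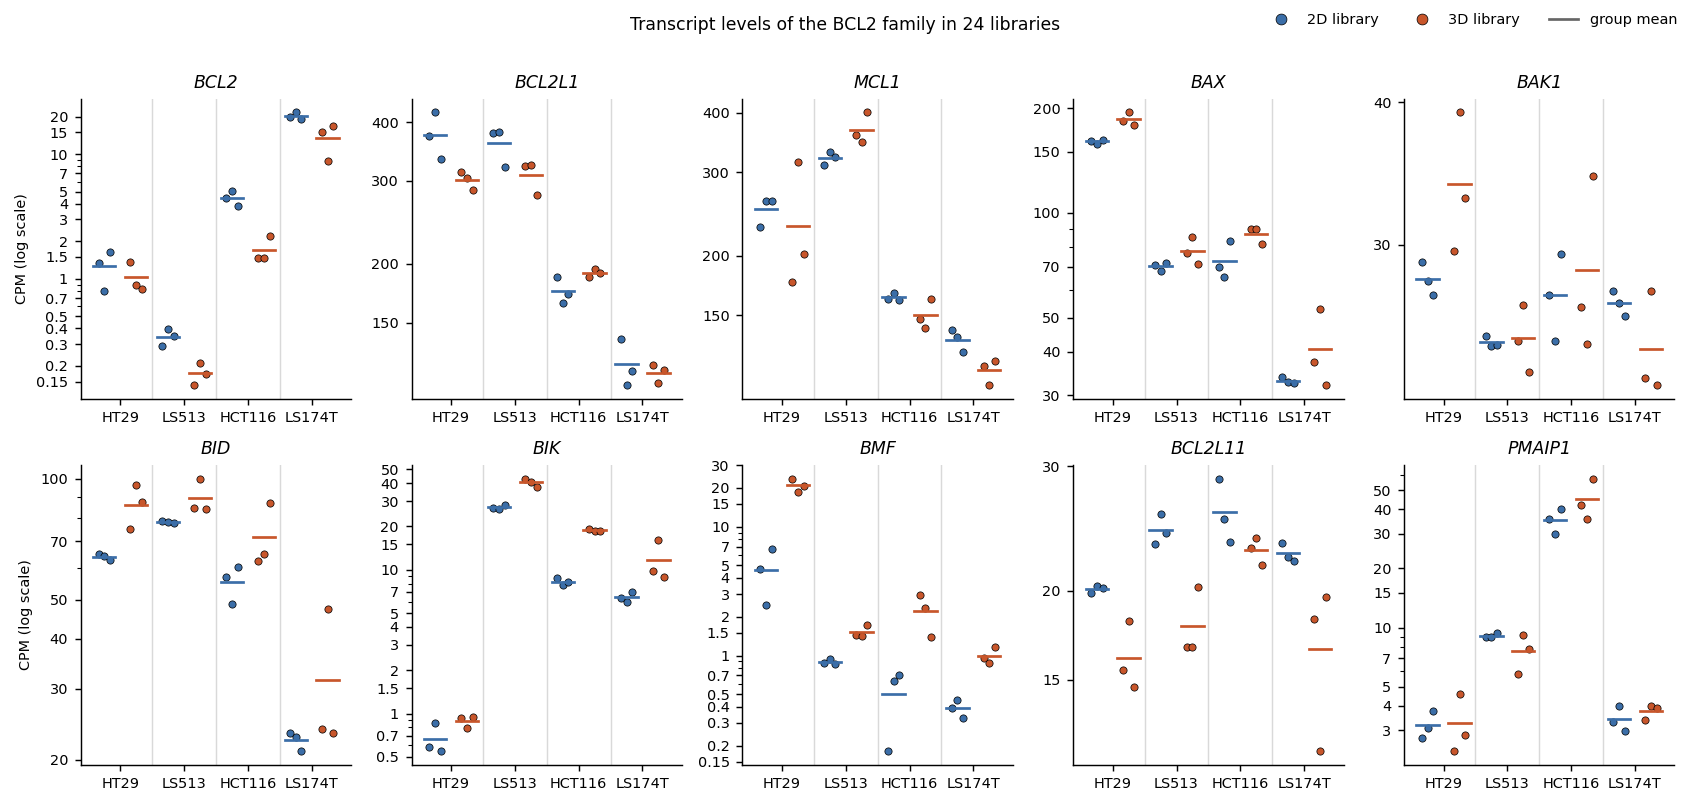
Level of each BCL2 family member in CPM (vertical axis, log scale, a separate range for each gene) in the 24 libraries, by line, with 2D libraries in blue and 3D libraries in orange; horizontal lines are group means of 3 libraries. BIK lies below 1 CPM in HT29 and at 26.6 to 43.0 CPM in LS513, whereas BAK1 stays between 22.6 and 39.2 CPM throughout.

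Whether the response to 3D growth differed between the lines was tested as an interaction over all 4 lines. This test called 17.1% of all genes and none of the 10 members. The lowest adjusted p-values were 0.0875 for BMF, 0.0885 for BCL2L1, 0.105 for BIK and 0.122 for BCL2, and these were also the 4 members with an unadjusted p below 0.05. DESeq2 called 1 member in the same comparison. With edgeR, 2 members were called without LS174T 3D replicate 2 or HCT116 3D replicate 3. It called 1 without HT29 2D replicate 3, HT29 3D replicate 3 or LS174T 3D replicate 3. The share of all genes called in these other fits is not given here, so these counts are not read as results about the members. In tests of single pairs of lines, the log2 fold change of BCL2L1 was lower in HT29 than in HCT116 by a difference of -0.44 (SE 0.14, adjusted p = 0.0479), and that of BMF was higher in HT29 than in LS513 by 1.42 (SE 0.45, adjusted p = 0.0388). For the other members, passing in one line and not in another is not shown to be a difference between the lines.

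The largest fold difference of a member was 66.2 between lines and 4.61 between 3D and 2D. The former was that of BCL2 between LS513 and LS174T, and BCL2 had only 4 to 13 counts a library in LS513. Not every member differed more between lines: the largest line difference of BCL2L11 was -0.43 (HT29 minus HCT116, log2), beside -0.45 between 3D and 2D in LS513. Averaged over 2D and 3D (n = 6 libraries a line) and called at an adjusted p below 0.05 with at least a doubling or halving, BCL2 differed in all 6 pairs of lines, and BAX, BIK and PMAIP1 in 5 pairs each. BID and BMF differed in 3 pairs each, BCL2L1 and MCL1 in 2 each, and BAK1 and BCL2L11 in none. By pair, 5 members differed between HT29 and LS513 (33.8% of all genes), 5 between HT29 and HCT116 (40.6%), 6 between HT29 and LS174T (38.4%), 4 between LS513 and HCT116 (41.5%), 7 between LS513 and LS174T (32.8%) and 4 between HCT116 and LS174T (39.8%).

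BCL2 spanned the widest range, from 0.260 ± 0.1002 CPM in LS513 (SD, n = 6) through 1.14 ± 0.350 CPM in HT29 and 3.08 ± 1.58 CPM in HCT116 to 16.9 ± 4.62 CPM in LS174T. The step between the ends was 66.2-fold (log2 difference -6.05, SE 0.22, adjusted p = 2.0e-17), and that between the top pair, LS174T and HCT116, was 5.99-fold. By group the order was LS174T 2D, LS174T 3D, HCT116 2D, HCT116 3D, HT29 2D, HT29 3D, LS513 2D and LS513 3D, with overlap only among HCT116 3D, HT29 2D and HT29 3D. BIK ran the other way in part, highest in LS513 (33.9 ± 7.54 CPM), then HCT116 (13.5 ± 5.79 CPM) and LS174T (9.02 ± 3.73 CPM), and 0.777 ± 0.173 CPM in HT29. LS513 exceeded HT29 by 42.6-fold (log2 difference of HT29 minus LS513 -5.41, SE 0.14, adjusted p = 3.6e-20). All neighbours in the order of the 8 groups were free of overlap for BIK except HT29 3D and HT29 2D.

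BMF had the opposite leader, with 12.8 ± 9.19 CPM in HT29, which was 8.34-fold above LS513, 9.16-fold above HCT116 and 15.5-fold above LS174T. HT29 3D alone was free of overlap at the top, and HT29 2D overlapped HCT116 3D. PMAIP1 was led by HCT116, at 40.04 ± 9.47 CPM, which was 4.79-fold above LS513, 11.04-fold above LS174T and 12.4-fold above HT29. HT29 and LS174T were not called apart in PMAIP1 (1.12-fold, adjusted p = 0.375), and each of their 4 groups overlapped its neighbour.

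BAX was highest in HT29, at 173 ± 14.8 CPM, which was 2.33-fold above LS513, 2.17-fold above HCT116 and 4.71-fold above LS174T, and the 4 groups of LS513 and HCT116 overlapped in order among themselves and with no group of HT29 or LS174T next to them. BID was lowest in LS174T, at 27.0 ± 10.1 CPM, between 2.37-fold and 3.15-fold below the other lines. In the order of its 8 groups, neighbours overlapped from LS513 3D down to HT29 2D, and HCT116 2D, LS174T 3D and LS174T 2D followed without overlap. BCL2L1 was 2.80-fold and 2.78-fold higher in HT29 and LS513 than in LS174T, and HT29 and LS513 were 1.01-fold apart (log2 difference 0.01, SE 0.07). MCL1 was highest in LS513, 2.20-fold above HCT116 and 2.79-fold above LS174T. BAK1 means lay between 24.7 ± 1.09 CPM in LS513 and 31.0 ± 4.51 CPM in HT29, with every neighbouring pair of groups overlapping. Means of BCL2L11 lay between 18.1 ± 2.51 CPM in HT29 and 24.3 ± 2.47 CPM in HCT116, and only LS174T 2D and HT29 2D were neighbours without overlap.

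To compare members with each other, CPM were divided by the exonic length of each gene in kilobases and expressed as a share of the sum over the 10 members. With this length, BCL2L1 had the highest mean share in every group, from 29.1% to 42.5%. In LS513 3D it was not separated from MCL1, at 32.4% ± 1.84% beside 29.3% ± 3.1% (SD, n = 3). Their log2 ratio ran from -0.117 to 0.305 in the libraries of that group. MCL1 took 17.3% to 29.3% and BAX 9.90% to 27.8%. By mean share, BAX was above MCL1 in both HT29 groups and below it in the other 6 groups. In HCT116 3D they were not separated, at 17.0% ± 1.80% for BAX and 17.3% ± 0.418% for MCL1 (SD, n = 3). BCL2 contributed between 0.00518% and 1.55%, so that the anti-apoptotic transcript pool of these lines was made up mostly of BCL2L1 and MCL1. BAK1 took 3.89% to 10.9% and BID 4.54% to 8.06%. BIK ranged from 0.260% in HT29 2D to 14.8% in LS513 3D, PMAIP1 from 0.542% to 10.1%, BCL2L11 from 0.931% to 3.07% and BMF from 0.0546% in HCT116 2D to 1.5% in HT29 3D.

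On the same per-kilobase scale, the log2 ratio of BCL2L1 to MCL1 was 0.98 ± 0.19 in HT29 2D (SD, n = 3) and 0.14 ± 0.23 in LS513 3D, the highest and the lowest of the 8 groups. The log2 ratio of BAX to BAK1 was 2.29 ± 0.05 in HT29 2D and 0.08 ± 0.02 in LS174T 2D. These levels depend on the length assigned to a gene. With the longest transcript in place of all exons, 24 of 40 line means moved by more than their SD. BAX in HT29 went from 66.9 to 127 CPM per kilobase, next to BCL2L1, which went from 102 to 130 CPM per kilobase. The shares by group were not recomputed with that length, so the order of members above is given for exonic length only.

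**Figure D3:**
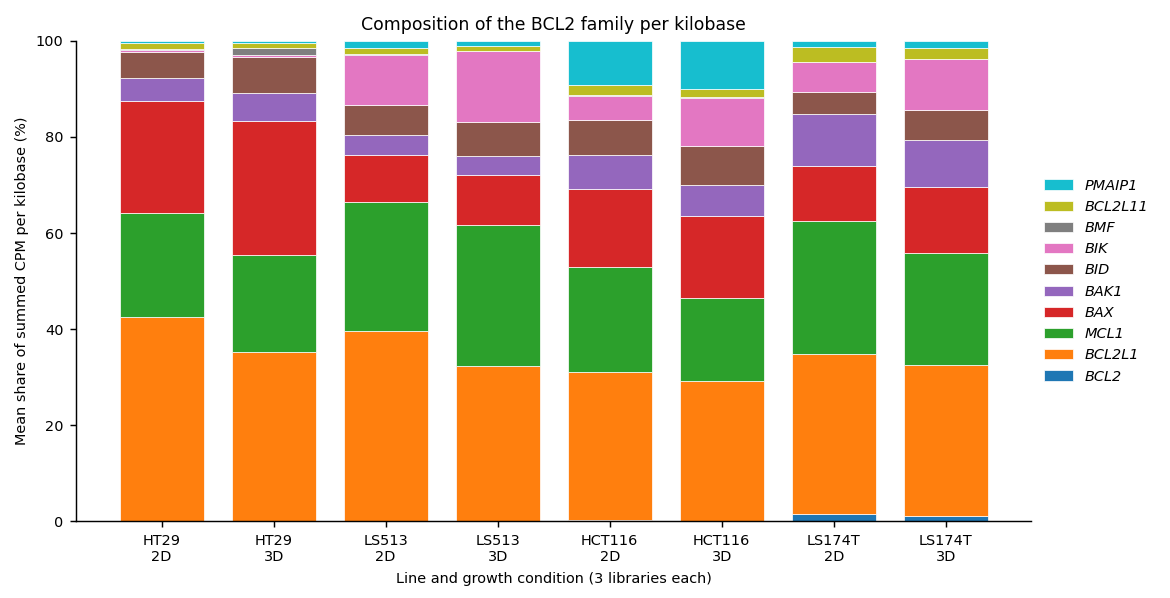
Mean share of each member in the summed per-kilobase level of the BCL2 family (vertical axis, percent) in the 8 groups, as stacked bars of 3 libraries each. With exonic length, BCL2L1 holds 29.1% to 42.5% of every bar, and the BIK band widens from 0.260% in HT29 2D to 14.8% in LS513 3D.

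Several other genes related to BCL2 were higher in 3D. Of 13 such genes, 11 passed the filter, and 7, 5, 7 and 7 of these were higher in 3D in HT29, LS513, HCT116 and LS174T, beside 21.1%, 13.7%, 16.8% and 13.1% of all genes, with none lower. The list was chosen with earlier results of these data known, so the counts are a description and not a test of enrichment. Without LS174T 3D replicate 2 the count in LS174T was 5, and without HCT116 3D replicate 1 the count in HCT116 was 6. Over the genes above 3 counts in the line, the median log2 fold change was 0.58 (9 genes), 0.44 (9), 0.52 (11) and 0.76 (10), respectively. BBC3, BCL2L14, BCL2L15, BNIP3L and BOK were higher in all 4 lines, a pattern shown by 3.14% of all genes, although BOK and BCL2L14 each lost a call when 1 of these libraries was left out.

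BBC3 encodes PUMA, a BH3-only protein that binds all anti-apoptotic members. In HT29 it measured 11.3, 6.88 and 11.6 CPM in 2D and 36.4, 35.7 and 27.6 CPM in 3D, and in LS513 7.47, 8.64 and 8.14 CPM in 2D and 21.5, 21.2 and 16.6 CPM in 3D. HCT116 gave 15.7, 14.8 and 15.3 CPM against 40.1, 39.6 and 28.0 CPM, and LS174T gave 17.0, 18.9 and 15.3 CPM against 31.8, 33.1 and 28.5 CPM. The 2D and 3D libraries were apart in every line, and the log2 fold changes were 1.75, 1.29, 1.23 and 0.87 (adjusted p = 7.1e-08, 7.7e-06, 8.5e-06 and 7.4e-04).

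BNIP3L, a mitophagy receptor with a BH3-like stretch, rose by 2.15, 2.32, 2.33 and 2.05 on the log2 scale in HT29, LS513, HCT116 and LS174T (adjusted p = 1.1e-08, 5.7e-09, 3.4e-09 and 3.1e-08). Its relative BNIP3 was at 0 to 2 counts in every HT29 and LS513 library, and went up in HCT116 from a mean of 23.4 CPM to one of 59.6 CPM (log2 fold change 1.35, adjusted p = 5.3e-08) and in LS174T from 25.5 to 135 CPM (2.40, adjusted p = 2.5e-11). BOK, a BAX-like protein, was higher by 0.54, 0.45, 0.52 and 0.42, and in LS174T it lost its call without 3D replicate 2 (0.20, adjusted p = 0.19). BCL2L14 was higher by 2.41, 0.76 and 1.55 in HT29, LS513 and LS174T; in HCT116 2D it was at 1 to 3 counts, so no fold is given, and it was not called there without 3D replicate 1 (adjusted p = 0.075). BCL2L15 was higher by 0.78, 0.44, 0.79 and 1.11. BAD, a BH3-only protein controlled by phosphorylation, was higher in HT29 (0.58, adjusted p = 0.032) and LS174T (0.65, adjusted p = 0.032), with values of 0.04 in LS513 and 0.15 in HCT116, and it was not called in LS174T without 3D replicate 2 (0.18, adjusted p = 0.49). BCL2L2, encoding the anti-apoptotic BCL-W, was higher in HT29 (0.29, adjusted p = 0.017), and HRK was found above 3 counts only in HCT116 (4.66 ± 0.230 CPM in 2D and 3.88 ± 0.188 CPM in 3D, not called).

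**Figure D4:**
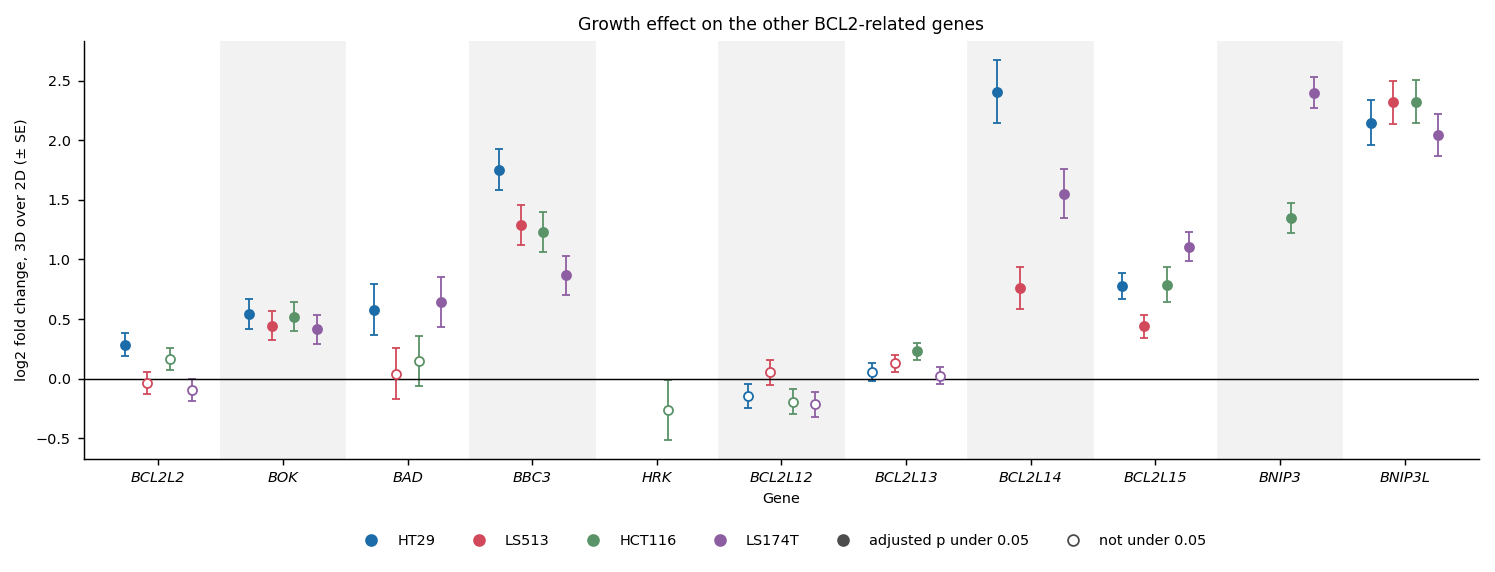
Log2 fold change between 3D and 2D growth (vertical axis) of the other BCL2-related genes in the 4 lines, with standard errors and filled points at an adjusted p below 0.05; points are left out where the mean of either group was below 0.1 CPM. BBC3 and BNIP3L are filled in all 4 lines, with BNIP3L between 2.05 and 2.33.

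In the mitochondrial pathway, 16 genes were tested. They cover the apoptosome, caspases, their inhibitors and other mitochondrial proteins, among them VDAC1, VDAC2, AIFM1 and ENDOG. In HT29, LS513, HCT116 and LS174T, 3, 4, 4 and 3 were higher and 3, 3, 3 and 0 lower. The medians were -0.03, 0.13, 0.03 and 0.08 in that order. Of all genes, 21.1%, 13.7%, 16.8% and 13.1% were higher and 19.6%, 9.9%, 12.3% and 9.15% lower in the same order, here and for the lists that follow. Without LS174T 3D replicate 2 the LS174T count was 1 higher, and without HCT116 3D replicate 1 the HCT116 counts were 2 higher and 1 lower. CASP9, the apoptosome's initiator, was higher by 0.30, 0.49 and 0.33 in HT29, LS513 and LS174T and just missed the call in HCT116 (0.27, adjusted p = 0.0501). It was not called in LS174T without 3D replicate 2 (0.30, adjusted p = 0.1). APAF1, the scaffold of the apoptosome, was called in no line. VDAC1 and VDAC2 were among the lower genes in HT29 (-0.27 and -0.49) and in HCT116 (-0.29 and -0.28). VDAC2 was higher in LS513 (0.43), and neither was called in LS174T.

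Among 10 genes of the death receptor arm upstream of BID, 3, 2, 4 and 1 were higher and 2, 1, 0 and 2 lower, with medians of -0.08, 0.08, 0.18 and -0.13. The LS174T counts were 0 and 0 without 3D replicate 2, and the HCT116 counts 2 and 0 without 3D replicate 1. CASP10 was higher in HT29, LS513 and HCT116 (0.43, 0.52 and 0.67) and had a value of -0.13 in LS174T, and CASP8, which cleaves BID, was called in no line. Transcripts of TNFSF10, the ligand TRAIL, increased from 1.27 ± 0.309 CPM in 2D to 8.49 ± 1.57 CPM in 3D in HT29 (log2 fold change 2.77, adjusted p = 3.9e-07). It was also higher in HCT116, where 2D was near 0 and 3D averaged 0.529 CPM, and in LS174T (0.80, adjusted p = 0.0416), but not in LS174T without 3D replicate 2 (0.70, adjusted p = 0.14). In LS513 it was not called (0.47, adjusted p = 0.225).

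Of 12 regulators of BH3-only genes and of MCL1 turnover, 1, 3, 2 and 3 were higher and 6, 1, 2 and 3 lower, with medians of -0.29, -0.09, -0.05 and -0.19. Without LS174T 3D replicate 2 the LS174T counts were 1 and 0, and without HCT116 3D replicate 1 the HCT116 counts were 0 and 2. ATF3, a stress-induced transcription factor, was higher in all 4 lines, by 2.38, 2.62, 1.00 and 2.16, although not in HCT116 without 3D replicate 1 (0.89, adjusted p = 0.11). In LS174T it was 1.58 without 3D replicate 2 (adjusted p = 0.0067). ATF4 was higher in LS513, HCT116 and LS174T, by 0.81, 0.43 and 0.45, but not in HCT116 without 3D replicate 1 (0.37, adjusted p = 0.13) or in LS174T without 3D replicate 2 (0.30, adjusted p = 0.25). USP13, a deubiquitinase that stabilises MCL1, was lower in all 4 lines, with log2 fold changes of -0.65, -0.64, -0.63 and -0.40. It was not called in LS174T without 3D replicate 2 (-0.23, adjusted p = 0.3). The other lower genes were HUWE1 and USP9X in HT29 and LS174T, FBXW7 in HT29 and HCT116, and BTRC and FOXO1 in HT29. What these changes together mean for MCL1 protein was not tested.

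RefSeq gave 2 promoters of 300 bases for BMF, the member with the largest fold changes. The upstream one is shown, 300 bases around the start of transcription from RefSeq on GRCh38.p14 (chr15:40108830-40109129, minus strand), with capitals at every match to the GC box GGGCGG on either strand.
BMF promoter: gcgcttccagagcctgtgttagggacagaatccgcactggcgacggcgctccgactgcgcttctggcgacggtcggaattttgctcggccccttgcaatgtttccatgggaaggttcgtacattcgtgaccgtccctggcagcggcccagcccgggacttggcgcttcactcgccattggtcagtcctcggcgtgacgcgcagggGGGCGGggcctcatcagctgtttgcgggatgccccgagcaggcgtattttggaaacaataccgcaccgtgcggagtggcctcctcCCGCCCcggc
It held 2 matches to GGGCGG, which is present in 45.0% of 35116 promoters of this length. There was no match to ACGTG (one form of the core of the hypoxia response element, 21.4% of promoters), GTAAACA (a forkhead motif, 3.42%) or TGACGTCA (the cyclic AMP response element, 1.85%). All were searched on both strands. The form GCGTG of the hypoxia core was not among the motifs searched. It does occur in the printed promoter, within cctcggcgtgacgc, and its share over all promoters is not given here. The other BMF promoter (chr15:40106917-40107216, minus strand) held no match to any of the 4 motifs. These motifs were chosen after the values had been seen, and a match is a description of letters only.

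Some counts are less certain because of neighbouring genes. The opposite strand gene ABALON covers 43.0% of the exonic bases of BCL2L1, and had group means of 0.264 to 2.47 CPM. MIR4435-2HG covers 10.9% of BCL2L11, BMF-AS1 (0 to 5 counts a library) covers 8.5% of BMF and GGNBP1 covers 4.1% of BAK1. The strand setting of the counting is not given in the sources used here, and without it reads of such partners cannot be told apart. The pseudogenes BAK1P1 and BAK1P2 had 22 and 0 counts over all 24 libraries.

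The gene whose log2(CPM + 1) followed each member most closely over the 24 libraries was also recorded, as a description. Pearson's r was 0.978 for BCL2 with ZNF85, 0.974 for BCL2L1 with DDX27, 0.963 for MCL1 with ACTR3, 0.979 for BAX with SLC2A4RG and 0.840 for BAK1 with NDUFB3. It was 0.981 for BID with SAP18, 0.986 for BIK with GJB5, 0.969 for BMF with FBLN2, 0.925 for BCL2L11 with PDPR and 0.985 for PMAIP1 with WNT10B. The libraries share lines and groups, so the 24 points are not independent.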

How the data were processed

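Poly(A) RNA was made into stranded libraries that the authors sequenced as single reads, trimmed with Trim Galore 0.4.1, aligned with STAR and counted per Ensembl gene with HTSeq 0.5.3, after removing multi-mapping reads. The submitters' processing notes also list bcl2fastq 2.18.0.12 and name hg19, whereas the study's methods give an annotation on GRCh38. The deposited values are raw counts in 191 files, 1 for each technical replicate.

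The 8 technical replicates of a library (7 for HT29 3D replicate 4, whose replicate d was not analysed here) were summed, since their counts differed by 0.999 to 1.029 times the sampling noise in a chi-square test. All 24 libraries were fitted together in edgeR 4.0.16 (R 4.3.3, limma 3.58.1) with a mean for each group, TMM scaling, filterByExpr and robust quasi-likelihood F tests, adjusted by Benjamini-Hochberg over 19387 genes. CPM are TMM-scaled. Growth calls used an adjusted p below 0.05, and line calls also an absolute log2 difference of at least 1. Gene symbols came from GENCODE (57980 of 58243 IDs matched), which also gave exonic lengths. The script was tested on simulated counts. An exact permutation test of 3 against 3 libraries cannot go below 0.1, so none was used. Alternatives were DESeq2 1.42.0, its size factors, no count filter, a replicate block, a fold threshold, fits by line, and leaving out libraries. All 10 members are named. Of the other lists, BBC3, BAD, BCL2L2, BNIP3, APAF1, CASP9 and CASP8 were always named, as was any gene called in the same direction in at least 3 lines; some listed genes under this rule are not reported here. HRK, VDAC1, VDAC2, AIFM1, ENDOG, HUWE1, USP9X, FBXW7, BTRC and FOXO1 were named after their values were seen. The members and lists were chosen with earlier results of these data known. Floors of 3 counts cover counting error only.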

Additional observations from a re-analysis of the deposited data

Results flagged for a closer look

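In a test of the difference in growth effect between pairs of lines, 2 member genes passed. For BCL2L1, the log2 fold change from 2D to 3D was -0.32 in HT29 and 0.13 in HCT116, a difference of -0.44 (SE 0.14, edgeR adjusted p = 0.0479), while the test over all 4 lines gave an adjusted p of 0.0885. For BMF, it was 2.21 in HT29 and 0.79 in LS513, a difference of 1.42 (SE 0.45, adjusted p = 0.0388), with an adjusted p of 0.0875 over all 4 lines. The 60 tests of 10 members in 6 pairs include many that share a line, and the cause of either difference was not tested.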

How the results depend on the processing

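Of 479 log2 fold changes of members recomputed under alternatives, 423 kept their direction and their side of the threshold, 21 newly passed, 27 no longer passed and 8 changed sign. With the size factors of DESeq2, 3 members were higher in HT29 and 1 lower in LS174T. With all genes of at least 1 count kept, 2 were higher and 0 lower in HT29, 2 higher in LS513, 3 higher in HCT116 and in LS174T, and 2 differed in growth effect, with BID called in HT29 (adjusted p = 0.00119), HCT116 (0.0407) and LS174T (0.00176). DESeq2 called 3 higher in HT29 and in LS174T, 1 lower in LS174T and 1 differing between lines, with BID called in HT29 (0.04) and LS174T (0.0408). Without technical replicate d, 1 was lower in LS174T, and BCL2 no longer passed there (-0.56, adjusted p = 0.0505). A threshold of 0.5 on the absolute log2 fold change left 0 lower in HT29 and LS513 and 1 lower in LS174T. Fits of the 6 libraries of a line gave 4 higher and 2 lower in HT29, 2 higher in LS513, 1 higher and 0 lower in LS174T, and BAK1 in LS513 at -0.0027. The share of all genes called under each alternative, or without each library, is not given here. The counts in this section therefore describe how stable the calls were and are not read as results about the members.

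Leaving out each library in turn gave 1 to 3 members higher and 0 to 1 lower in HT29, 1 higher and 0 to 2 lower in LS513, 2 higher and 1 lower in HCT116 throughout, 1 to 4 higher and 0 to 2 lower in LS174T, and 0 to 2 differing between lines. Between lines it gave 6 to 7 members for LS513 and LS174T and for HT29 and LS174T. Signs changed for PMAIP1 in HT29 (-0.25 to 0.26), MCL1 in HT29 (-0.36 to 0.0729), BAK1 in LS513 (-0.0454 to 0.0586), BAK1 in HCT116 (-0.11 to 0.15) and BCL2L1 in LS174T (-0.13 to 0.0352).

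Same-numbered libraries correlated at -0.209 to 0.216 in their deviations from the group means, so that the numbers were not taken to pair the samples, and not every library correlated best with its own number. With the replicate block, 0 members were lower in HT29, where BCL2L1 lost its call (-0.19, adjusted p = 0.187). In LS174T 1 was lower, BCL2L11 (-0.47, adjusted p = 0.0356), and BCL2 lost its call (-0.62, adjusted p = 0.0666). No other call of a member changed. In HT29 the block used only replicates 1 and 3, since 2D replicate 2 and 3D replicate 4 had no partner of the same number. The causes of these changes were not tested. Depth limits BCL2 in LS513, at 4 to 13 counts a library, and BMF outside HT29. Leaving out 2 libraries for the related lists was decided after seeing the data.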
